A study of Sus scrofa with 3 samples.

Results

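Complement is a cascade of plasma and cell-surface proteins that was followed here through 8 of its genes in pig kidney: C1QA, C1R, C2, CFB, C3, C5, CFI and CD55. They were taken by symbol from a list of 9 genes that was chosen with earlier results of these data known. The ninth, C1S, was not analysed here. The 8 are among 34570 genes listed. Of them, 7 reached a mean of at least 1 scaled CPM (CPM, counts scaled to a common library size) and were compared along with 15472 genes in all. CD55 fell just short, at a mean of 0.992 scaled CPM, and is given by its counts.

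Kidney RNA came from Wuzhishan pigs aged 6 to 7 months, all fed a high-fat, high-cholesterol diet. The groups were castrated males with testosterone replacement (CMT), castrated males without it (CM) and intact males (IM). RNA of 3 pigs per group was pooled into 1 library, so the spread between pigs is unknown and p-values are not given. The labels give neither the testosterone dose nor the age at castration. The libraries held 13601475 counts in CMT, 18503537 in CM and 16459771 in IM. Each fold below is a ratio of scaled counts, followed by its exact 95% interval, which covers counting error only. Calls of higher or lower were made where that interval lay wholly beyond 2-fold. Levels of different genes are not compared as results, because no transcript lengths were used. In tissue RNA, fewer cells of a type and less RNA per cell cannot be told apart.

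The classical pathway starts when C1q, built of A, B and C chains, binds antibody or a damaged surface and switches on the proteases C1r and C1s. C2 and factor B supply the proteases of the convertases that cleave C3, and cleaved C3 helps to cleave C5, which releases the inflammatory fragment C5a and starts the membrane attack complex of C5b to C9. Factor I inactivates C3b and C4b, and CD55 speeds the decay of the convertases on a cell's own surface. Liver makes most plasma complement, while kidney tubule cells and resident macrophages make some of it locally.

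Between CM and IM, C5 was the one member called, and it was higher in CM. That is 1 of 7 compared members called higher, against 1.2% of all compared genes, and 0 of 7 called lower, against 1.52%. C2 and C3 also stood above IM in CM and CFB below it, each by less than the 2-fold rule asks, while CFI and C1R lay close to their IM levels. Between CMT and CM, 0 of 7 were called higher, against 1.84% of all compared genes, and 0 of 7 lower, against 1.11%. Between CMT and IM, 0 of 7 were called higher, against 0.905%, and 0 of 7 lower, against 0.595%. Each library enters more than 1 comparison, so the folds of a gene are not independent of each other.

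**Figure D1:**
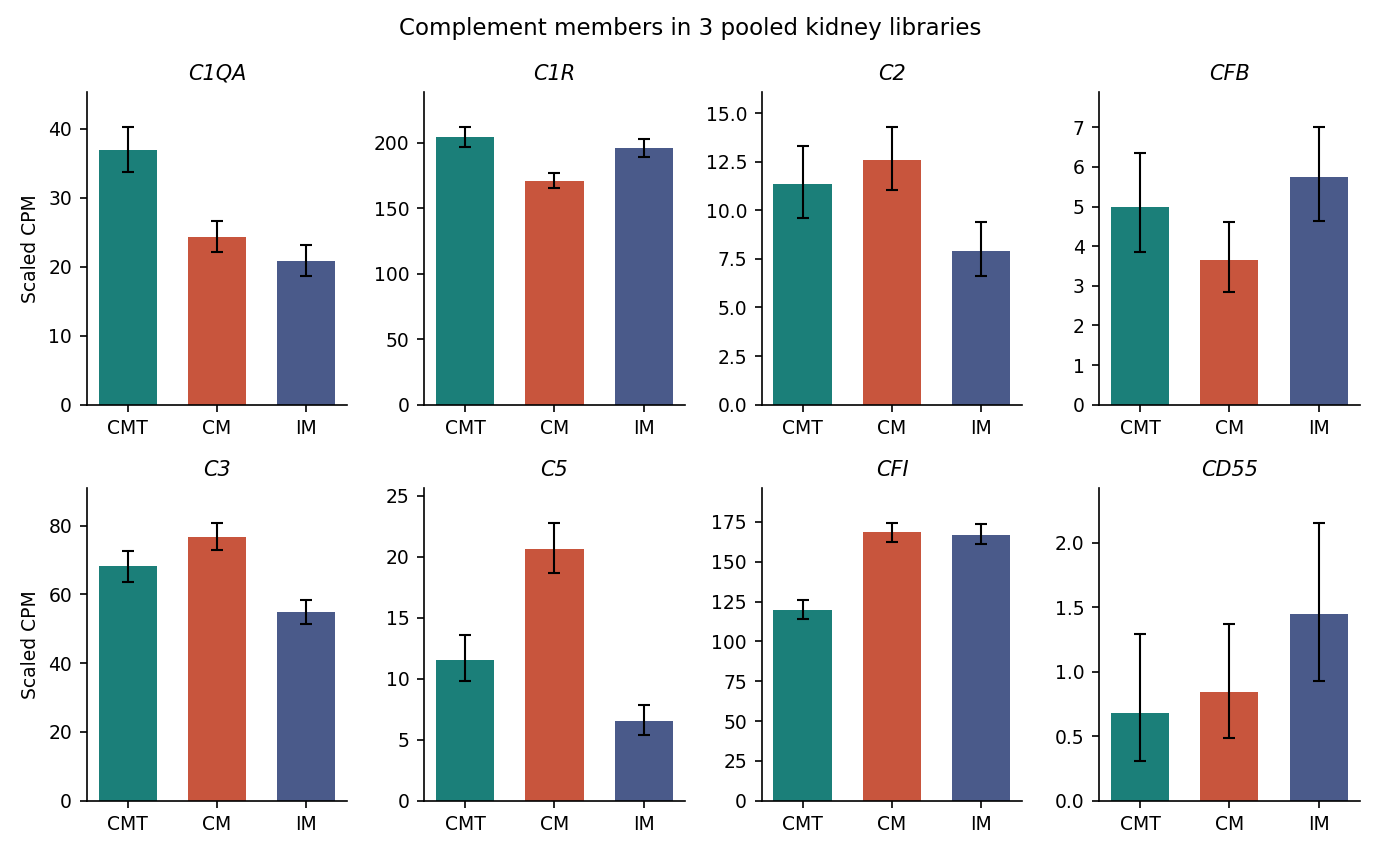
Scaled CPM (y axis, a separate scale starting at 0 in each panel) of the 8 members in the CMT, CM and IM libraries, 1 pooled library per bar, with exact Poisson 95% intervals that cover counting error only. C5 stands at 20.6 scaled CPM in CM, against 6.52 in IM, and CFI is lowest in CMT at 119.9.

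C5, the precursor of C5a and the first component of the membrane attack complex, had 153 counts in CMT, 390 in CM and 108 in IM. On the scaled level these are 11.6 CPM in CMT, 20.6 in CM and 6.52 in IM, and the counting intervals of the 3 libraries do not overlap. CM was 3.16-fold (2.55 to 3.95) above IM. CMT stood at 0.560 (0.462 to 0.677) of CM, a difference that was not called. CMT was also 1.77-fold (1.38 to 2.29) above IM, again not called, so that its C5 level lay between those of the other libraries.

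C3, on which all activation routes converge, had 902 counts in CMT, 1452 in CM and 907 in IM. The scaled levels were 68.2 CPM in CMT, 76.8 in CM and 54.8 in IM, with IM lowest. CM stood at 1.40-fold (1.29 to 1.52) of IM, and CMT at 0.887 (0.816 to 0.965) of CM and 1.24-fold (1.13 to 1.37) of IM. C5 and C3 code for related proteins, and their count ratio within a library does not depend on library scaling. This pair, and the other gene pairs below, were chosen after values were seen. C5 counts per C3 count were 0.170 in CMT, 0.269 in CM and 0.119 in IM. That ratio was 2.26 times (1.79 to 2.86) as high in CM as in IM, and in CMT it was 0.632 (0.511 to 0.778) of that in CM.

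**Figure D2:**
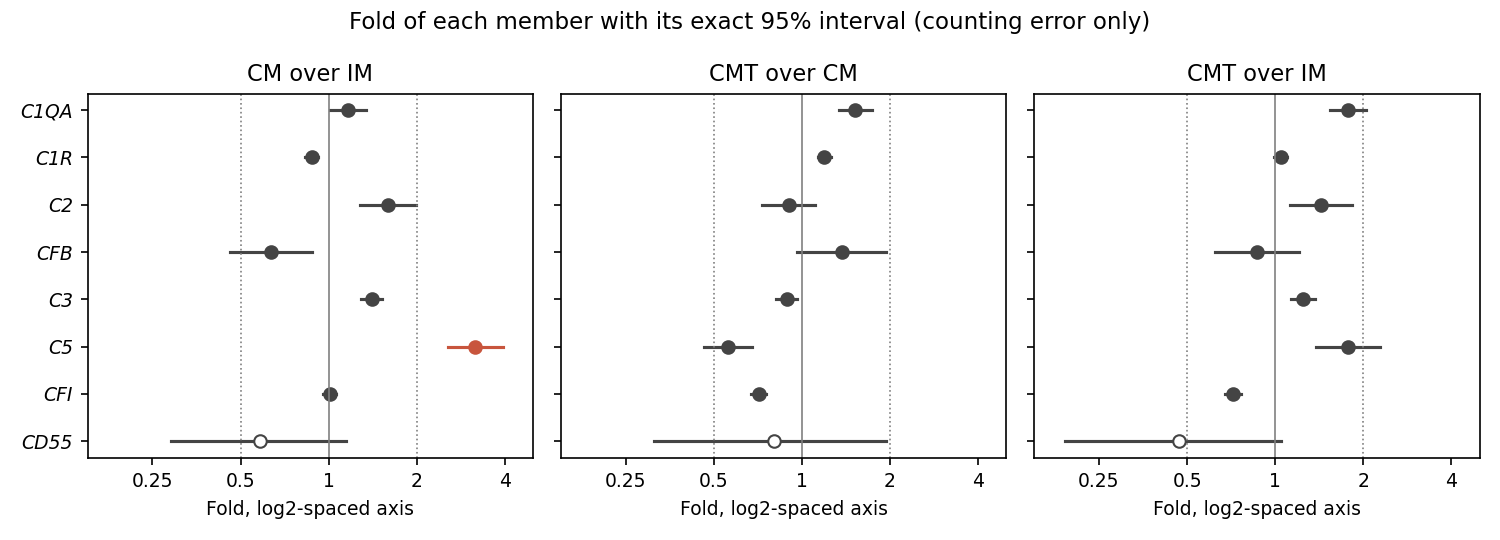
Fold (x axis, log2-spaced) of each member in CM over IM, CMT over CM and CMT over IM, with exact 95% intervals for counting error; dotted lines mark 2-fold, coloured points are called, and the open point is CD55, which was below the minimum level. The interval of C5 in CM over IM, 2.55 to 3.95, is the one that clears a dotted line.

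C2, the protease of the classical and lectin C3 convertase, had 150 counts in CMT, 238 in CM and 131 in IM. Its scaled levels were 11.3 CPM in CMT, 12.6 in CM and 7.91 in IM. CM stood at 1.59-fold (1.28 to 1.99) of IM, CMT at 0.900 (0.729 to 1.11) of CM and at 1.43-fold (1.13 to 1.82) of IM. Both castrated libraries therefore lay above the intact one, and the CMT interval against CM included 1.

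CFB, the factor B gene of the alternative pathway, had 66 counts in CMT, 69 in CM and 95 in IM. The scaled levels were 4.99 CPM in CMT, 3.65 in CM and 5.74 in IM, lowest in CM. CM stood at 0.636 (0.460 to 0.877) of IM, while CMT at 1.37-fold (0.960 to 1.94) of CM and 0.869 (0.625 to 1.20) of IM had intervals that included 1. C2 and CFB code for related proteins and are next to each other in RefSeq's gene table (assembly Sscrofa11.1). Reads from neighbouring genes were assigned by a counting method that is not given in the sources used here. C2 counts per CFB count were 2.27 in CMT, 3.45 in CM and 1.38 in IM. The ratio was 2.50 times (1.69 to 3.71) as high in CM as in IM, 0.659 (0.436 to 0.998) in CMT of that in CM, and 1.65 times (1.09 to 2.49) in CMT of that in IM.

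C1R, the protease that C1q activates first, had 2703 counts in CMT, 3233 in CM and 3237 in IM. On the scaled level it stood at 204 CPM in CMT, 171 in CM and 196 in IM. CM lay at 0.875 (0.833 to 0.919) of IM and CMT at 1.19-fold (1.13 to 1.26) of CM. The CMT to IM fold of 1.04 (0.992 to 1.10) had an interval that included 1, so C1R was the member with the narrowest range over the 3 libraries among those compared.

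C1QA, the A chain of C1q, had 488 counts in CMT, 459 in CM and 345 in IM. Its scaled levels were 36.9 CPM in CMT, 24.3 in CM and 20.8 in IM, with CMT highest and the intervals of CM and IM overlapping. CMT stood at 1.77-fold (1.54 to 2.04) of IM and 1.52-fold (1.33 to 1.73) of CM, and CM at 1.16-fold (1.01 to 1.34) of IM. None of these was called at 2-fold, and C1QA is the one member whose interval between CMT and IM lay wholly beyond 1.5-fold, as for 2.3% of all compared genes in the higher direction.

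Between CM and IM the other C1q chains were not all in step with C1QA, whereas each chain had its highest scaled level in CMT. C1QB had 264 counts in CMT, 243 in CM and 260 in IM, and its scaled level in CM was 0.819 (0.684 to 0.979) of that in IM. In CMT it stood at 1.55-fold (1.30 to 1.855) of CM and 1.27-fold (1.07 to 1.51) of IM. C1QC had 978 counts in CMT, 1282 in CM and 773 in IM, and stood at 1.45-fold (1.33 to 1.59) in CM of IM. In CMT it stood at 1.09-fold (1.002 to 1.185) of CM and 1.58-fold (1.44 to 1.74) of IM. C1QC counts per C1QB count were 3.70 in CMT, 5.28 in CM and 2.97 in IM, and the ratio was 1.77 times (1.45 to 2.17) as high in CM as in IM. C1QA counts per C1QB count were 1.85 in CMT, 1.89 in CM and 1.33 in IM, that is, 0.979 (0.784 to 1.22) in CMT of CM and 1.42 times (1.13 to 1.79) in CM of IM.

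Macrophages make C1q, and 10 of 12 macrophage markers had a row. None of the 9 that were compared was called in any comparison, against 0.595% to 1.84% of all compared genes per comparison and direction. Their summed level was 93.4 scaled CPM in CMT, 86.3 in CM and 68.2 in IM, in the same order as C1QA, and none of the 10 was at 0 counts in any library. CD163, a scavenger receptor of macrophages, had 29 counts in CMT, 37 in CM and 36 in IM (2.19, 1.96 and 2.17 scaled CPM). CSF1R, the receptor for macrophage growth factor, had 346 counts in CMT, 482 in CM and 216 in IM. It alone gave 26.1 scaled CPM of the summed level in CMT, 25.5 in CM and 13.05 in IM. Between CMT and IM, 8 of the 9 lay above 0 on the log2 scale, with a median log2 fold of 0.11 (0.82 for C1QA, -0.01 for all compared genes). The interval excluded 1 on the higher side for 3 of the 9, against 17.8% of all compared genes, and included 1 for the other 6. Between CMT and CM, where C1QA stood at 1.52-fold, it excluded 1 for 0 of the 9, against 21.3% higher and 20.4% lower. The part of macrophage number in the C1QA values was not tested.

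**Figure D3:**
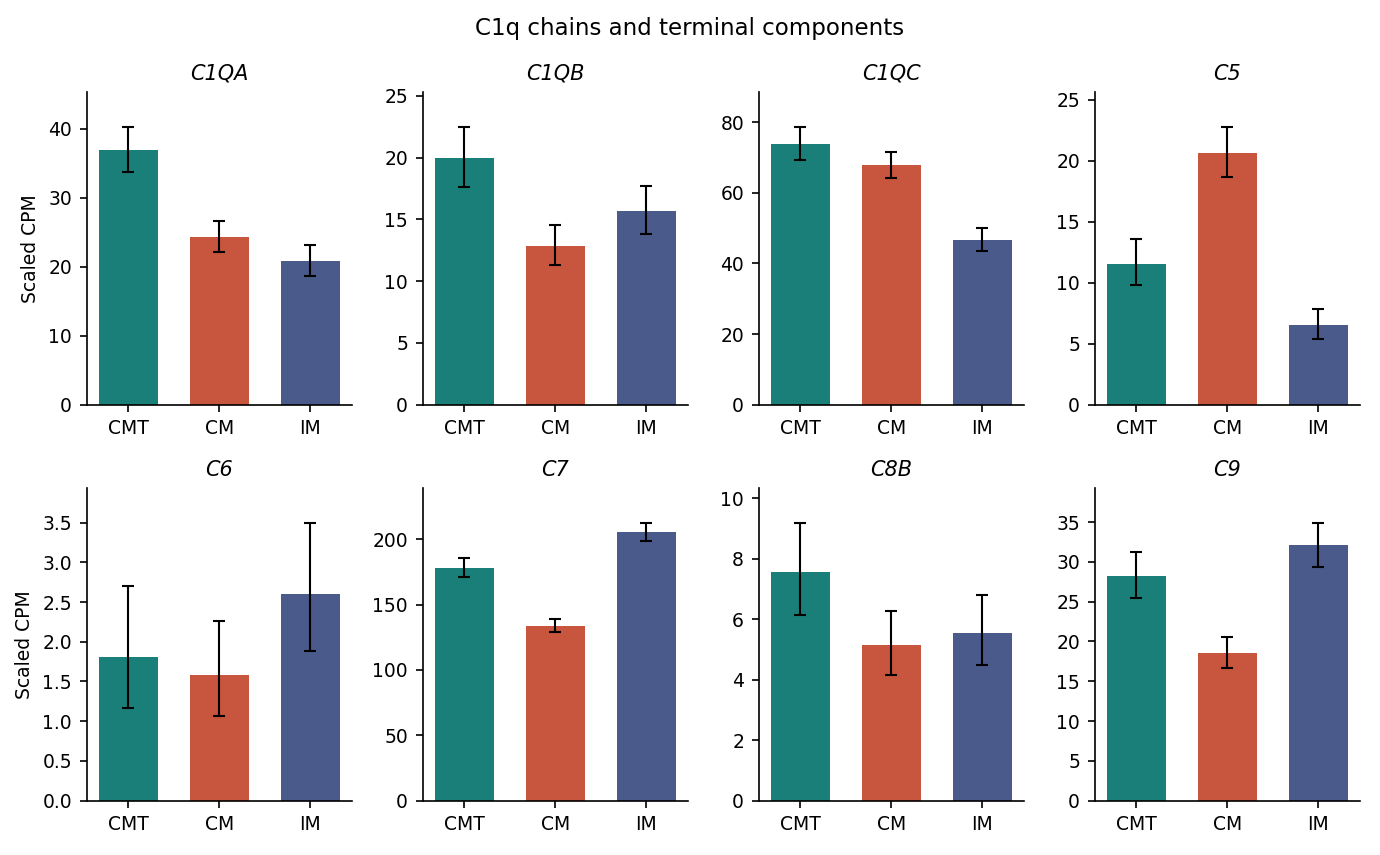
Scaled CPM (y axis from 0, a separate scale in each panel) of the 3 C1q chains and of terminal components in the CMT, CM and IM libraries, 1 pooled library per bar, with exact Poisson 95% intervals for counting error. C5 is highest in CM, whereas C7 at 133.9 and C9 at 18.6 scaled CPM are lowest there.

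CFI, the gene of the plasma protease factor I, had 1587 counts in CMT, 3186 in CM and 2766 in IM. Its scaled levels were 119.9 CPM in CMT, 168.5 in CM and 167 in IM. CM lay at 1.01-fold (0.959 to 1.06) of IM, and CMT at 0.711 (0.669 to 0.756) of CM and 0.718 (0.674 to 0.764) of IM. CMT was therefore the library that stood apart, by less than the 2-fold rule asks. CFI counts per C1R count, free of library scaling, were 0.587 in CMT, 0.985 in CM and 0.854 in IM. The CMT ratio was 0.596 (0.550 to 0.645) of that in CM.

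CD55, the membrane-bound decay accelerating factor, had 9 counts in CMT, 16 in CM and 24 in IM. CM stood at 0.584 (0.290 to 1.15) of IM, CMT at 0.803 (0.313 to 1.93) of CM and at 0.469 (0.192 to 1.04) of IM. All 3 intervals included 1, so no difference in CD55 was detectable at this depth.

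As a group the 7 compared members had a median log2 fold of 0.22 in CM over IM, against -0.01 for all compared genes, with 5 above 0 and 2 below. In CMT over CM the median was -0.15, against -0.004 for all, with 3 above 0 and 4 below. In CMT over IM it was 0.31, against -0.01, with 5 above and 2 below. Between CM and IM, the interval excluded 1 on the higher side for 4 members, against 21.2% of all compared genes, and on the lower side for 2, against 23.2%. Between CMT and CM it did so on the higher side for 2 members, against 21.3%, and on the lower side for 3, against 20.4%. Between CMT and IM it did so on the higher side for 4 members, against 17.8%, and on the lower side for 1, CFI, against 17.5%. More counts give a narrower interval, so that C1R is included at 0.875 in CM of IM. The shares come from all compared genes, not from genes matched to the members for counts.

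Of the wider set of 58 named complement genes, 47 had a row and 34 were compared. Apart from the members, 27 were compared, without the numbered row that shares the symbol C4BPA. Between CM and IM 0 of them were called, against 1.2% of all compared genes higher and 1.52% lower. Between CMT and CM 0 were called, against 1.84% higher and 1.11% lower. Between CMT and IM, 1 of 27 was called higher, against 0.905% of all compared genes, and 0 lower, against 0.595%. That gene was COLEC11, a collectin that starts the lectin pathway, with 115 counts in CMT, 101 in CM and 42 in IM. CMT was 3.42-fold (2.39 to 5.001) above IM, and CM stood at 2.11-fold (1.46 to 3.10) of IM, which was not called. The median log2 fold of the 27 was -0.01 in CM over IM, 0.08 in CMT over CM and 0.24 in CMT over IM.

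**Figure D4:**
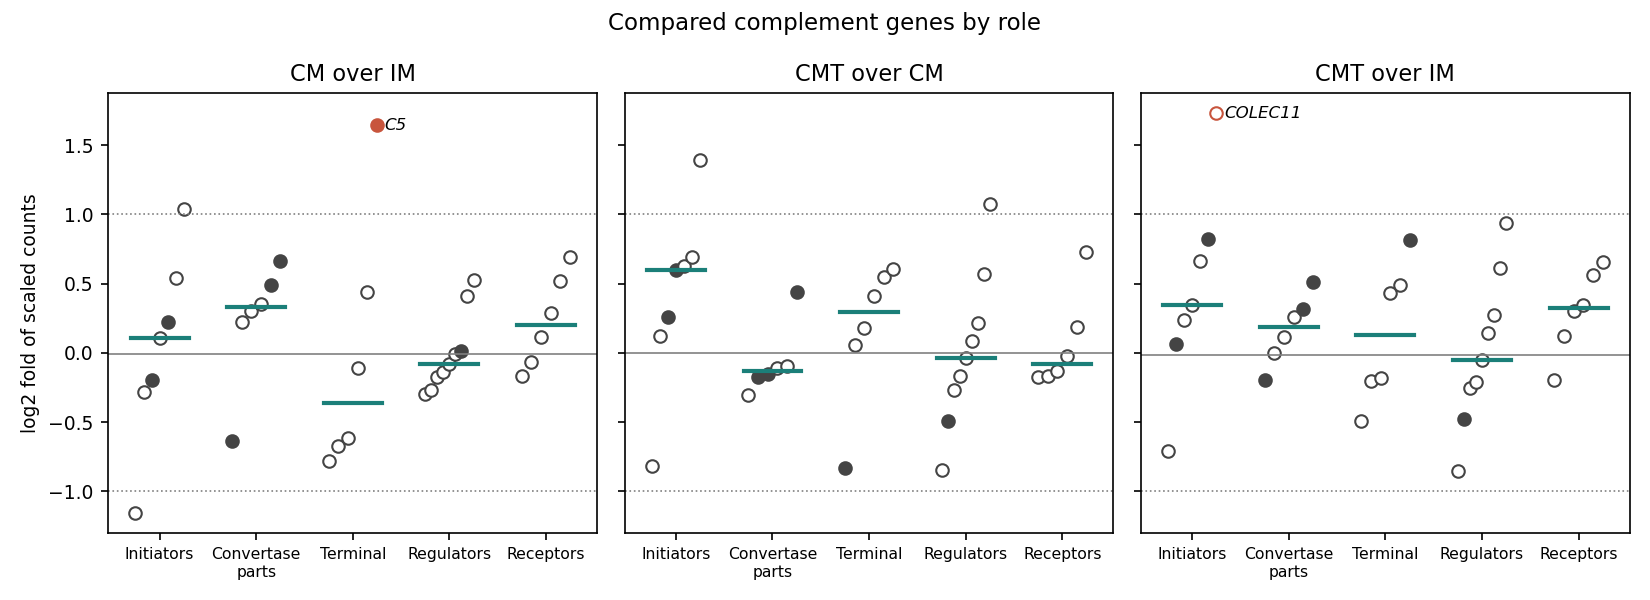
log2 fold of scaled counts (y axis) for the 34 compared complement genes by role in each comparison; filled points are the members, open points the other genes, green bars the medians, the grey line the median of all compared genes, and coloured named points were called. C5 at 1.64 in CM over IM and COLEC11 at 1.73 in CMT over IM are the called genes.

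The convertase genes beside the members included C4, the partner of C2, with 3302 counts in CMT, 5046 in CM and 3457 in IM. CM stood at 1.28-fold (1.22 to 1.33) of IM for C4, whose gene can occur in near-identical copies that reads may share. CFD, the protease that cleaves factor B, had 373 counts in CMT, 660 in CM and 468 in IM, and stood at 1.23-fold (1.10 to 1.39) in CM of IM. Of the 6 compared convertase genes 5 lay above 0 in CM over IM, with a median log2 fold of 0.33, and CFB was the one below. C3 counts per C4 count were 0.273 in CMT, 0.288 in CM and 0.262 in IM, and all 3 intervals of the change between libraries included 1.

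None of the 5 other compared terminal components had the order of scaled levels of C5, with CM highest and IM lowest. C7, a channel-forming component, had 2358 counts in CMT, 2532 in CM and 3403 in IM, and CM stood at 0.652 (0.619 to 0.686) of IM. C9, which forms the pore, had 374 counts in CMT, 351 in CM and 531 in IM, and CM stood at 0.579 (0.504 to 0.664) of IM. For C6, with 24 counts in CMT, 30 in CM and 43 in IM, CM stood at 0.611 (0.370 to 0.997) of IM. C8B had 100 counts in CMT, 97 in CM and 92 in IM, and its interval between CM and IM included 1. C8G had 40 counts in CMT, 55 in CM and 35 in IM, with IM lowest as for C5, and its fold of 1.38 (0.885 to 2.17) in CM of IM had an interval that included 1. None of these was called. C5 counts per C7 count were 0.0649 in CMT, 0.154 in CM and 0.0317 in IM, and the ratio was 4.85 times (3.89 to 6.10) as high in CM as in IM. This pair was chosen after the opposite directions of C5 and C7 were seen, so the ratio describes them and adds no separate result.

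Among 9 compared regulators, 0 were called in any comparison, against 0.595% to 1.84% of all compared genes per comparison and direction. CLU, the secreted chaperone clusterin, had 6837 counts in CMT, 9211 in CM and 5595 in IM, and stood at 1.44-fold (1.39 to 1.49) in CM of IM. SERPING1, the C1 inhibitor that stops C1r, had 2806 counts in CMT, 3448 in CM and 3638 in IM. Its folds of 0.830 (0.792 to 0.870) in CM of IM and 1.16 (1.10 to 1.22) in CMT of CM had the same sign as those of C1R. C4BPA, a chain of the C4b-binding protein, had 89 counts in CMT, 85 in CM and 92 in IM. Scaled, it stood at 1.495-fold (1.10 to 2.04) in CMT of CM. A numbered row for which RefSeq gives the same symbol had 164 counts in CMT, 629 in CM and 243 in IM. There CMT was called lower than CM, at 0.372 (0.312 to 0.443), the opposite direction to the C4BPA row. CM stood at 2.27-fold (1.95 to 2.64) of IM in the numbered row, which was not called. How reads were divided between those rows is unknown.

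None of the 6 compared receptor genes was called in any comparison, against the same shares of all compared genes, 0.595% to 1.84%. C5AR1, the receptor for C5a, had 110 counts in CMT, 178 in CM and 108 in IM, and stood at 1.44-fold (1.13 to 1.85) in CM of IM. C3AR1, the receptor for C3a, had 74 counts in CMT, 63 in CM and 58 in IM, and stood at 1.68-fold (1.18 to 2.39) in CMT of CM. ITGB2, the integrin chain of complement receptors 3 and 4, had 400 counts in CMT, 503 in CM and 406 in IM. Its scaled levels were 30.2 CPM in CMT, 26.6 in CM and 24.5 in IM, with CMT at 1.23-fold (1.07 to 1.42) of IM. CD93, a surface glycoprotein of endothelial and myeloid cells, had 322 counts in CMT, 468 in CM and 461 in IM, and stood at 0.889 (0.780 to 1.01) in CM of IM.

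Marker genes of other cells moved in some of the comparisons. Of 19 hepatocyte markers 18 had a row and 13 were compared. Between CM and IM, TTR and APOA1, 2 of the 13, were called higher, against 1.2% of all compared genes. ALB, AFP, PLG and TF, 4 of the 13, were called lower, against 1.52%, with a list median log2 fold of -0.92. The summed level of the list was 1005 scaled CPM in CMT, 643 in CM and 1095 in IM, of which TF alone gave 547 in CMT, 285 in CM and 626 in IM. ALB, the most abundant product of hepatocytes, was at 30.5 scaled CPM in CMT, 1.27 in CM and 117.9 in IM, so that it was lowest in the library where C5 was highest. Among the 13 compared, only APOA1, HPX and AMBP were highest in that library, as C5 was. APOA1 was at 24.4 scaled CPM in CMT, 39.1 in CM and 15.8 in IM. HPX was at 9.44 in CMT, 19.1 in CM and 9.12 in IM, and AMBP at 21.3 in CMT, 24.3 in CM and 16.1 in IM. Between CM and IM the interval excluded 1 on the lower side for 8 of the 13, against 23.2% of all compared genes. It did so on the higher side for 5, against 21.2%. FGA, APOB and SERPINA1 lay below the minimum level and were not compared. FGA had 5 counts in CMT, 0 in CM and 17 in IM. APOB had 5 in CMT, 0 in CM and 1 in IM, and SERPINA1 0 in CMT, 1 in CM and 3 in IM. APOA2 and APOH also lay below that level. ALB, AFP, TTR and SERPINC1, 4 of the 13, were called higher in CMT than in CM, against 1.84% of all compared genes, and 0 lower, against 1.11%. Between CMT and IM, TTR was called higher, against 0.905%, and ALB and PLG lower, against 0.595%. The part of these genes' source in the C5 values was not tested.

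Lymphocyte markers had their highest summed level in CM, as C5 did. Of 12 markers 11 had a row and 9 were compared. IGJ and MZB1, 2 of the 9, were called higher in CM than in IM, against 1.2% of all compared genes. The list median log2 fold there was 1.10. CD247, CD79A and IGJ, 3 of the 9, were called lower in CMT than in CM, against 1.11%. The summed level of the list was 57.8 scaled CPM in CMT, 163.9 in CM and 51.9 in IM. Of this IGJ alone gave 21.8 in CMT, 101.8 in CM and 16.1 in IM, and none of the 11 was at 0 counts in any library. The part of lymphocytes in the C5 values was not tested. Of 10 fibroblast markers, all compared, and of 13 compared tubule and podocyte markers, 0 were called in any comparison. Of all compared genes, 0.595% to 1.84% were called per comparison and direction. Smaller differences were present: between CM and IM the interval excluded 1 on the higher side for 9 of the 13 and on the lower side for 2. ATP6V1B1 was at 413 scaled CPM in CMT, 727 in CM and 433 in IM, and SLC5A2 at 422, 369 and 552. The defining tubule genes UMOD, CUBN and SLC34A1 had counts in every library. Of 7 neutrophil markers 2 were compared, and S100A12 was called higher in CMT than in both other libraries, with 87 counts in CMT, 5 in CM and 7 in IM. CSF3R, the other one compared, was not called, with 12 counts in CMT, 17 in CM and 31 in IM. It went the other way against IM, at 0.484 (0.227 to 0.970) in CMT of IM, so the list had no shared direction there.

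Among 9129 protein-coding genes with a symbol and a mean of at least 5 scaled CPM, the 4 whose centred log2 levels over the 3 libraries lay closest to those of C5 were VWCE, HRG, SLC5A10 and POAT1-1. VWCE, at a distance of 0.031 on the log2 scale, had 379 counts in CMT, 956 in CM and 261 in IM. HRG, the gene of a plasma glycoprotein rich in histidine, followed at 0.097, with 266 counts in CMT, 621 in CM and 187 in IM. SLC5A10, a sodium-coupled sugar transporter, followed at 0.113 and POAT1-1 at 0.147. With 3 libraries many genes can share an order of levels, and the distances are a description.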

How the data were processed

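Per the labels' protocols, kidney RNA was extracted with TRIzol, equal shares from 3 pigs were mixed for each group, and an Ion Torrent total RNA library was made from each mix. The design text speaks of Illumina sequencing in triplicate, whereas 1 column per group was used here. The authors deposited raw counts per gene. FastQC is the one tool named in the submitters' processing notes; the aligner, counter, strand setting, build and annotation are not given in the sources used here. Symbols for numbered rows (such as CFD, C8G and C9) came from the RefSeq table of assembly Sscrofa11.1 where unique and not already listed.

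Counts were scaled by TMM factors of 0.973 (CMT), 1.02 (CM) and 1.01 (IM) from edgeR 4.0.16 in R 4.3.3. Intervals are Clopper-Pearson for folds, exact Poisson for levels (scipy 1.17.1) and conditional exact for count ratios. Sequenced reads are not independent molecules, so these cover counting error only. Log2 folds used a prior count of 2. With 1 library per group no count model was fitted. The 12 alternatives changed scaling, filter, prior count, fold, interval level or depth.

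Members and lists were chosen with earlier results of these data known. The rule named all members, other complement genes that were called or among the 2 with the highest mean scaled CPM of their role (not per length, and used only to choose names), called markers, and the 4 genes nearest in pattern to a called member. Other complement genes and markers (C1QB, C6, C8B, C8G, CFD, C4BPA and its numbered row, C5AR1, C3AR1, CD163, CSF1R, CSF3R, HPX, AMBP, tubule genes), and the gene pairs, were chosen after values were seen. Some listed genes are not reported here.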

Additional observations from a re-analysis of the deposited data

How the results depend on the processing

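Of the calls on members, 1 was lost and 1 gained over the 10 alternatives that bear on calls; the other 2 changed the prior count of log2 folds. With a fold of 3 in place of 2, the members called higher in CM than in IM numbered 0 (C5 lost, its fold being 3.16), and 1.29% of all compared genes were called in either direction against 2.71% at 2-fold. With a fold of 1.5, 1 member was called higher in CMT than in IM (C1QA), and 3.74% of all compared genes were called in that comparison in either direction, against 1.5% at 2-fold. CFB in CMT over IM turned to 1.02 after thinning to the smallest library. That library is CMT, so its counts stayed as they were, while the IM counts were a random draw and the scaling was computed anew. The main fold of 0.869 (0.625 to 1.20) already had an interval that included 1. No other draw was tested. The other counts of called members were the same under each of those 10. The medians ranged over 0.12 to 0.35 in CM over IM, -0.22 to -0.13 in CMT over CM and 0.19 to 0.41 in CMT over IM. Depth limits CD55 and CFB most. No paired analysis was possible because each group is 1 pooled library.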

Other observations

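Several complement genes lay below the minimum level of 1 scaled CPM and entered no comparison. FCN2, a ficolin that recognises sugars, had 15 counts in CMT, 3 in CM and 7 in IM. CR2, the receptor for C3d on B cells, had 4 counts in CMT, 28 in CM and 9 in IM. C4BPB, the beta chain of the C4b-binding protein, had 6 counts in CMT, 23 in CM and 18 in IM. The mannose-binding lectin gene MBL1 had 0 counts in all 3 libraries, which, with 3 counts as the limit of a count of 0, allows a level of up to 0.227 scaled CPM in CMT, 0.159 in CM and 0.181 in IM. MBL2 had 1 count in CMT, 0 in CM and 0 in IM.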
